A study of Mus musculus with 30 samples.

Results

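Smox, Paox, Sat1 and Sat2 encode 4 enzymes tied to the breakdown of spermine and spermidine, and their RNA was followed here across 10 groups of colon samples. The members were the rows of the deposited gene table whose symbol was Smox, Paox, Sat1 or Sat2. All 4 were found among its 31023 genes, and all 4 passed the filter on low counts that left 19558 genes for testing.

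Polyamines are small positively charged molecules that bind nucleic acids and are needed for growth of the gut lining. They are built from ornithine by way of putrescine to spermidine and spermine, and they are taken down again by 2 routes. Spermine oxidase, the product of Smox, turns spermine straight into spermidine and releases hydrogen peroxide and an aldehyde. In the other route spermidine/spermine acetyltransferase, encoded by Sat1, first acetylates spermine or spermidine, and the acetylated product is exported or is oxidised by PAOX, an enzyme of the peroxisome that also makes hydrogen peroxide. Sat2 is related to Sat1 in sequence, and its product has been linked to the acetylation of thialysine more than to that of polyamines. In the colon, spermine oxidase is known as an enzyme induced in inflammation.

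RNA was sequenced from colon taken at day 56 from male C57BL/6 mice that were 8 to 12 weeks of age, either wild type (WT) or labelled Smox-/-, with 3 mice per group. AOM-DSS is a model of cancer on a background of colitis, in which a dose of 12.5 mg/kg of the carcinogen azoxymethane was followed by 3 cycles of 5 days of 4% dextran sulfate sodium, starting on days 5, 26 and 47. Spermidine (Spd) was drunk at 14 mM. The groups were Smox-/- AOM-DSS tumor, WT AOM-DSS Spd tumor, Smox-/- AOM-DSS Spd NT, WT AOM-DSS Spd NT, Smox-/- AOM-DSS NT, WT AOM-DSS NT, Smox-/- Spd, WT Spd, Smox-/- untreated and WT untreated, where NT is non-tumor colon of mice given AOM-DSS. Tumors of WT mice came from mice given spermidine and tumors labelled Smox-/- from mice without it, so genotype and spermidine cannot be told apart between the tumor groups. The extent of the deletion in Smox is not given in the labels, and neither is any link between tumors and non-tumor colon of 1 mouse.

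The libraries held 33060607 to 81011304 counts. Epithelial keratins and adhesion genes (6 of 6 markers above 0 in all 30 libraries, 9671 to 18220 CPM in sum) were in place for colon. Libraries are numbered within each group in the order of their identifiers, since the labels number no replicates. A pair of libraries stood apart. WT untreated replicate 3 had 21.7% mitochondrial counts and 6963 CPM of summed skeletal muscle markers, where the other WT untreated libraries had 28.4 and 35.3 CPM. Smox-/- AOM-DSS Spd NT replicate 1 had 867 CPM of summed Wnt and stem cell markers, where the other libraries of its group had 85.8 and 146 CPM and the tumors 307 to 2804 CPM. Marker sums were also uneven in Smox-/- untreated replicate 3, with 2611 CPM of squamous markers beside 4.00 and 101 CPM in its group, and in Smox-/- Spd replicate 1, with 1132 CPM of skeletal muscle markers beside 17.9 and 35.6 CPM. Values without all 4 of these libraries come from a fit added after these sums were seen. Uneven sums were not limited to these 4. Smox-/- AOM-DSS tumor replicate 3 had 971 CPM of smooth muscle markers, beside 71.2 and 105 CPM in its group. Its Wnt and stem cell markers were at 307 CPM, beside 1329 and 2090 CPM. Squamous markers were at 253 CPM in WT Spd replicate 1, beside 1.2 and 1.5 CPM. They were at 723.5 CPM in Smox-/- Spd replicate 2, beside 33.8 and 51.65 CPM. These libraries were left out only 1 at a time. Levels are CPM, which are counts scaled to library size with TMM factors, and a gene is said to have risen or fallen where edgeR's quasi-likelihood test gave an adjusted p under 0.05.

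Smox lies on chromosome 2 (GRCm38 chr2:131491496-131525922, plus strand), Paox on chromosome 7 (chr7:140115799-140137224, plus strand), Sat1 on the X chromosome (chrX:155213132-155216449, minus strand) and Sat2 on chromosome 11 (chr11:69622024-69623870, plus strand). GENCODE annotates 17 transcripts of Smox, of which 11 are coding, 5 with 3 coding for Paox, 7 with 2 coding for Sat1 and 3 with 2 coding for Sat2. A stretch of 142 exon bases of Paox is shared with Echs1 on the opposite strand. Whether strand was used in counting is not given in the sources used here, so reads from that stretch cannot be assigned to either gene. Smox and Paox were the members whose level changed in tumors, and the sequence before their RefSeq start is shown for that reason (RefSeq promoters on GRCm38.p6, where all 4 members matched). Both stretches lie inside the annotated gene span and outside annotated exons. The Smox line runs from position -208 to -99 (chr2:131491654-131491763, plus strand), and the Paox line from -250 to -1 (chr7:140125407-140125656, plus strand). Capitals mark matches to any of 8 motifs searched on both strands.
Smox: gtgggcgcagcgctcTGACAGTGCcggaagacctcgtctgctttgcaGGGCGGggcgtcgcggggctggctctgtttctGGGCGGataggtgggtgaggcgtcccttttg
Paox: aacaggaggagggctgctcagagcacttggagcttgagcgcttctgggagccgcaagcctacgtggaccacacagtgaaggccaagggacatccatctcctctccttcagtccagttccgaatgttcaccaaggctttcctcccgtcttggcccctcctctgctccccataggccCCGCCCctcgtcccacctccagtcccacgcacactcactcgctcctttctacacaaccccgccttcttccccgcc

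The Smox stretch held the core of the antioxidant response element (TGACNNNGC) at -193, which 4.06% of 27025 mouse promoters hold in the same positions, and GC boxes (GGGCGG) at -161 and -129, which 14.4% hold. The Paox stretch held a GC box at -75, found in 32.9% of promoters over the same positions. Neither stretch held the letters of AP-1 (TGANTCA), the E-box (CACGTG), TCF/LEF (CTTTGAT), the CAAT box (CCAAT) or the TATA box (TATAAA), nor a match to the longer NF-kB motif. No matches overlapped each other, and a match or its absence describes these letters only.

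Per kilobase of exon, Sat1 was the most abundant of the 4 transcripts in every library. It made up 58.9 to 91.3% of their summed level (median 86.8%), followed by Smox with 5.4 to 38.9% (median 9.95%), Paox with 1.03 to 4.95% (2.56%) and Sat2 with 0.31 to 1.82% (0.806%). The level per kilobase averaged 81.6 CPM for Sat1, 12.6 CPM for Smox, 2.41 CPM for Paox and 0.875 CPM for Sat2 over the 30 libraries. Smox was above Paox, and Paox above Sat2, in all 30 libraries. In WT AOM-DSS Spd tumors the level of Smox per kilobase was 27.7 ± 8.39 times that of Paox, and in Smox-/- AOM-DSS tumors 8.25 ± 3.47 times (SD, n = 3 each). In the 8 non-tumor groups the mean ratio lay between 2.24 and 5.53. Single non-tumor libraries overlapped the Smox-/- AOM-DSS tumors, whose ratios were 8.44, 11.6 and 4.69. Smox-/- AOM-DSS Spd NT replicate 1 was at 10.4, and WT Spd replicate 2 at 5.06. The WT AOM-DSS Spd tumors, at 20.2 to 36.8, lay above every non-tumor library. Lengths are the union of annotated exons, and the transcripts used in colon were not resolved.

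**Figure D1:**
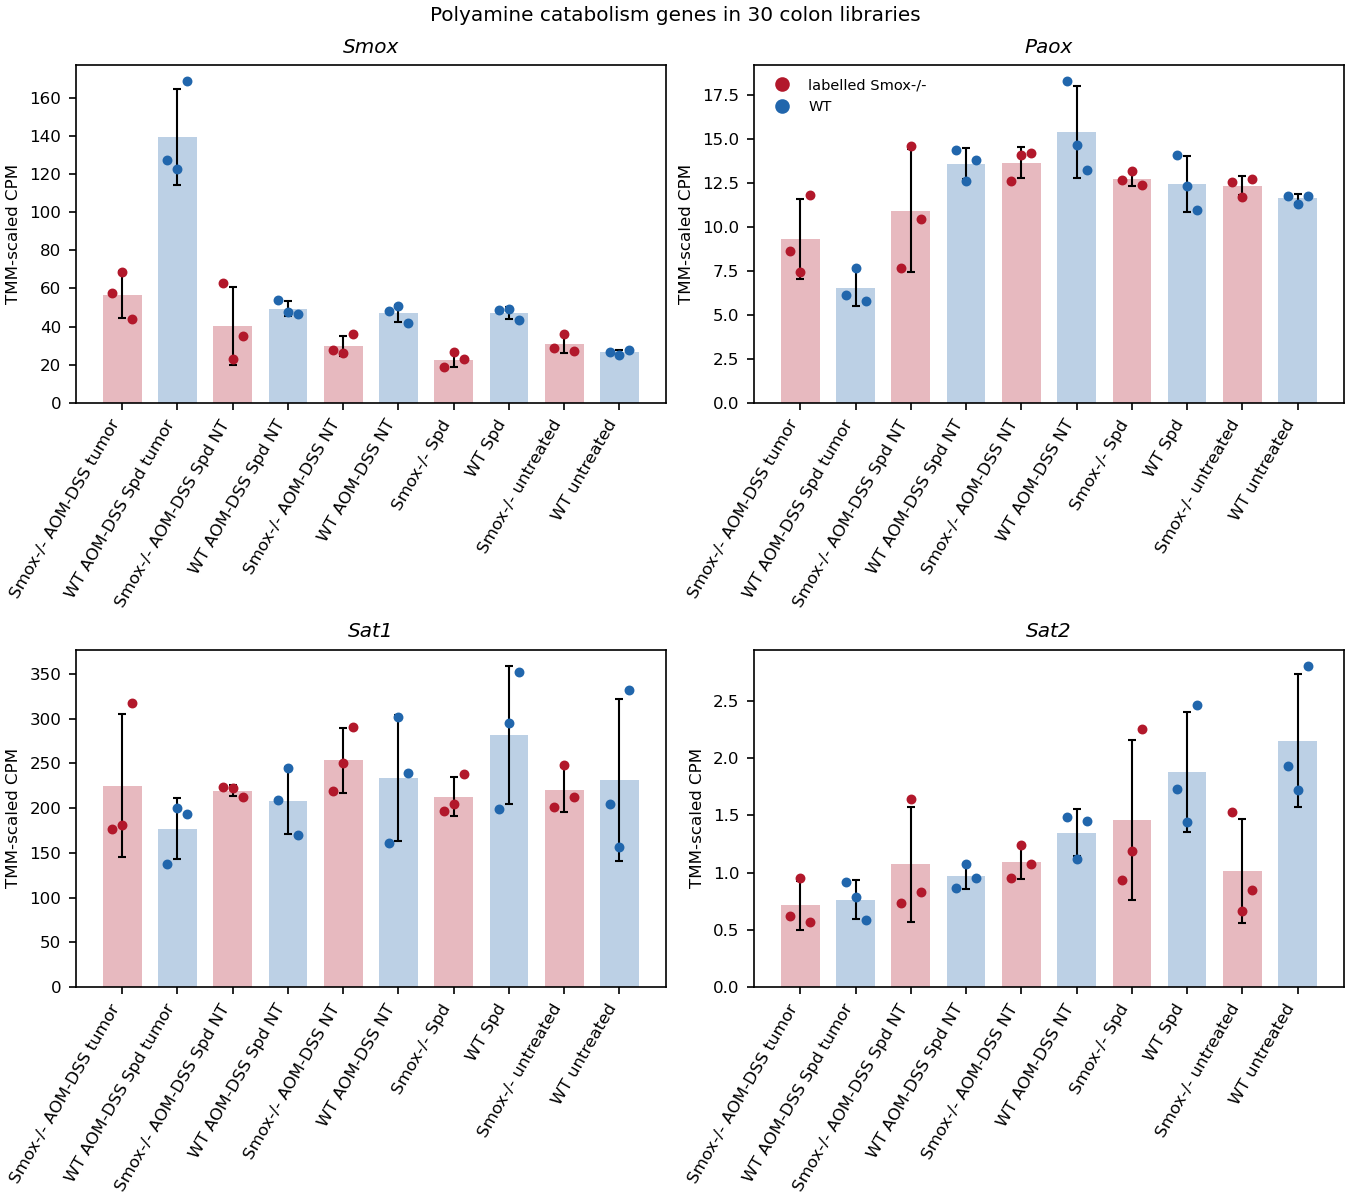
TMM-scaled CPM (linear axes from 0) of Smox, Paox, Sat1 and Sat2 in the 10 groups; points are libraries, bars group means and error bars 1 SD (n = 3). Smox stands highest in WT AOM-DSS Spd tumors (139.7 CPM), where Paox is lowest (6.53 CPM), while each Sat1 group overlaps the next in order of level.

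Smox, the gene of spermine oxidase and the one deleted in this study, was highest in tumors. Counts of 1115 to 10997 per library stood behind its values. It had 127, 123 and 169 CPM in WT AOM-DSS Spd tumors, and 57.7, 68.7 and 44.0 CPM in Smox-/- AOM-DSS tumors. The next group means were 49.4 ± 4.05 CPM in WT AOM-DSS Spd NT, 47.3 ± 3.15 in WT Spd and 46.9 ± 4.61 in WT AOM-DSS NT. They were followed by 40.5 ± 20.5 CPM in Smox-/- AOM-DSS Spd NT, 30.8 ± 4.78 in Smox-/- untreated, 29.9 ± 5.25 in Smox-/- AOM-DSS NT, 26.5 ± 1.23 in WT untreated and 22.7 ± 4.02 in Smox-/- Spd (SD, n = 3 each). In that order only the WT tumors were clear of the group below them, and every other pair of neighbours overlapped. Smox RNA was therefore counted in all libraries labelled Smox-/-, at 28.7, 36.2 and 27.4 CPM in Smox-/- untreated colons, against 26.7, 25.1 and 27.6 CPM in WT untreated colons. A gene-level count that may include exons outside the deletion does not check the genotype, and each direction by genotype below rests on the labels.

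Tumors were set against non-tumor colon to ask which of the 4 genes change in the neoplasm itself. Smox rose and Paox fell in both tumor comparisons, 4 of the 8 tests of members, where 24.6% of all genes were called in Smox-/- AOM-DSS tumors over Smox-/- AOM-DSS NT and 34.4% in WT AOM-DSS Spd tumors over WT AOM-DSS Spd NT. The mean level of Smox was 2.83-fold higher in WT AOM-DSS Spd tumors than in WT AOM-DSS Spd NT, whose libraries had 54.1, 47.5 and 46.6 CPM (95% interval 1.99 to 4.01, edgeR adjusted p = 0.000335). It was 1.90-fold higher in Smox-/- AOM-DSS tumors than in Smox-/- AOM-DSS NT, where the non-tumor libraries had 27.6, 26.1 and 35.8 CPM (1.35 to 2.69, adjusted p = 0.0115). The groups did not overlap in either comparison, which was also true of 55.7% and 42.5% of all genes. The tumor effect on Smox differed between the 2 comparisons by -0.57 on the log2 scale (Smox-/- minus WT, 95% interval -1.27 to 0.13, adjusted p = 0.511), so a difference was not shown. Averaged over both comparisons Smox was 2.32-fold higher in tumors than in non-tumor colon (1.82 to 2.97, adjusted p = 2.56e-05), where 47.3% of genes were called. For Smox-/- AOM-DSS tumors the call was lost without tumor replicate 1 (log2 0.92, adjusted p = 0.0501) and without tumor replicate 2 (0.77, 0.0685) and was at the threshold without Smox-/- AOM-DSS NT replicate 2 (0.84, 0.04998), and over the 6 libraries left out in turn the adjusted p ran from 0.00362 to 0.0685.

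Paox, the oxidase of acetylated polyamines, moved the other way. It had 6.12, 7.67 and 5.79 CPM in WT AOM-DSS Spd tumors, against 14.4, 12.6 and 13.8 CPM in WT AOM-DSS Spd NT. Every WT tumor lay below every non-tumor library, and the level was 2.08-fold lower in the tumors (log2 -1.06, 95% interval -1.46 to -0.66, adjusted p = 0.000607). In Smox-/- AOM-DSS tumors Paox had 8.62, 7.45 and 11.8 CPM, against 12.6, 14.1 and 14.2 CPM in Smox-/- AOM-DSS NT. These groups did not overlap either, and Paox was 1.47-fold lower in the tumors (log2 -0.55, -0.95 to -0.16, adjusted p = 0.0394). This second call is the less firm one. It was lost in 5 of 6 fits that left out a library: without Smox-/- AOM-DSS NT replicate 1 (log2 -0.58, adjusted p = 0.0649), 2 (-0.53, 0.102) or 3 (-0.49, 0.127) and without tumor replicate 1 (-0.50, 0.149) or 2 (-0.42, 0.18). Without tumor replicate 3, the highest of the tumors, it held with an adjusted p of 0.011. Averaged over both comparisons Paox was 1.75-fold lower in tumors (log2 -0.81, -1.09 to -0.52, adjusted p = 9.68e-05).

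Outside tumors the group means of Paox lay between 10.9 and 15.4 CPM, and single libraries between 7.67 and 18.3 CPM. From high to low, group means were 15.4 ± 2.60 CPM in WT AOM-DSS NT, 13.6 ± 0.89 in Smox-/- AOM-DSS NT, 13.6 ± 0.90 in WT AOM-DSS Spd NT, 12.7 ± 0.41 in Smox-/- Spd, 12.4 ± 1.58 in WT Spd, 12.3 ± 0.54 in Smox-/- untreated, 11.6 ± 0.26 in WT untreated and 10.9 ± 3.50 in Smox-/- AOM-DSS Spd NT (SD, n = 3 each). They were followed by 9.30 ± 2.26 CPM in Smox-/- AOM-DSS tumors and 6.53 ± 1.01 CPM in WT AOM-DSS Spd tumors. Each group overlapped the next in that order. Between the tumor groups Paox differed by 0.51 on the log2 scale, Smox-/- AOM-DSS over WT AOM-DSS Spd (95% interval 0.11 to 0.91, adjusted p = 0.691).

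**Figure D2:**
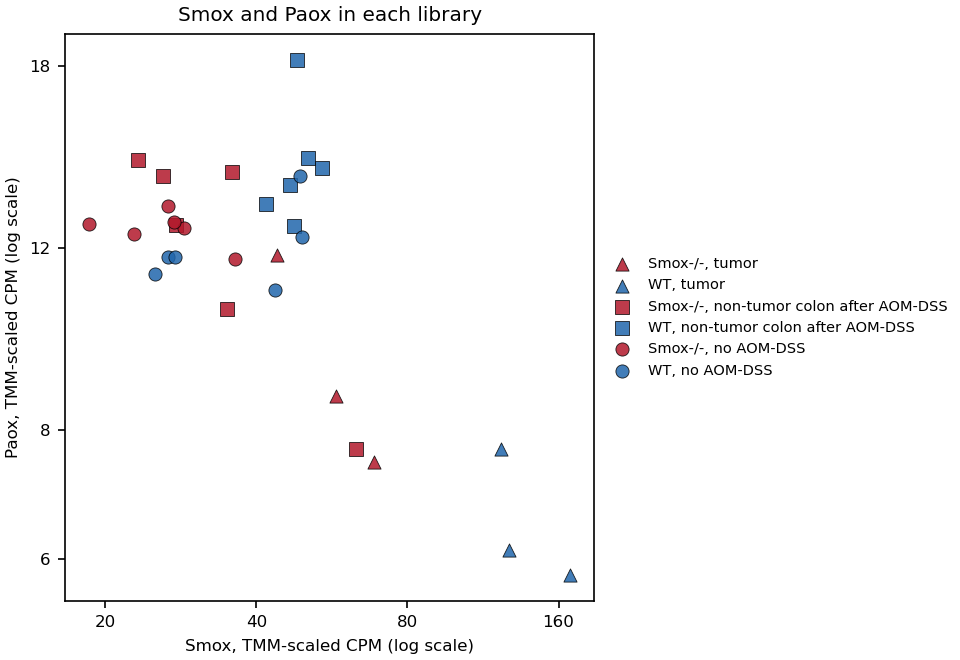
Smox (x axis) against Paox (y axis), both TMM-scaled CPM on log scales, 1 symbol per library; triangles are tumors, squares non-tumor colon after AOM-DSS and circles colon without AOM-DSS. The WT tumors lie at the lower right with Smox from 123 to 169 CPM and Paox from 5.79 to 7.67 CPM, and among the tumors labelled Smox-/- Smox ranges from 44.0 to 68.7 CPM and Paox from 7.45 to 11.8 CPM.

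The cell make-up of the samples moved with these values. All 6 Wnt and stem cell markers rose in each tumor comparison, and their sum was 1207 to 2804 CPM in WT AOM-DSS Spd tumors, against 135 to 189 CPM in WT AOM-DSS Spd NT. In Smox-/- AOM-DSS tumors the sum was 307 to 2090 CPM, against 116 to 134 CPM in Smox-/- AOM-DSS NT. Of 6 colonocyte markers 5 fell in each comparison, to a sum of 556 to 601 CPM in WT AOM-DSS Spd tumors, against 2787 to 4657 CPM in WT AOM-DSS Spd NT, and to 405 to 660 CPM in Smox-/- AOM-DSS tumors, against 2830 to 3813 CPM in Smox-/- AOM-DSS NT. Smooth muscle markers fell as well, 6 of 6 in WT AOM-DSS Spd tumors and 1 of 6 in Smox-/- AOM-DSS tumors, and no marker of these 3 lists was at 0 in any tumor or non-tumor library. In WT AOM-DSS Spd tumors summed goblet cell markers were at 661 to 2588 CPM, against 4283 to 11540 CPM in non-tumor colon. In Smox-/- AOM-DSS tumors they were at 1872 to 3492 CPM, against 9797 to 14460 CPM. Summed squamous markers were higher, at 41.45 to 92.1 CPM in WT AOM-DSS Spd tumors, against 1.52 to 9.8 CPM. In Smox-/- AOM-DSS tumors they were at 50.5 to 607.5 CPM, against 2.44 to 11.3 CPM. Summed neutrophil markers were at 42.25 to 130 CPM in WT AOM-DSS Spd tumors, against 0.857 to 6.27 CPM in non-tumor colon. For macrophage markers the ranges were 73.2 to 98.1 CPM, against 14.5 to 47.5 CPM. Both sums overlapped in the Smox-/- comparison. B and plasma cell markers were at 59.35 to 583 CPM in Smox-/- AOM-DSS tumors, against 1839 to 3616 CPM, and overlapped in the WT comparison. In Smox-/- AOM-DSS Spd NT replicate 1, the non-tumor library with 867 CPM of Wnt and stem cell markers, Smox was at 63.1 CPM and Paox at 7.67 CPM, inside or near the range of the tumors labelled Smox-/-. The part of cell make-up in the changes of Smox and Paox was not tested, and in tissue RNA fewer cells that express a gene cannot be told apart from less RNA per cell.

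The comparison of genotypes asks how far the deletion shows in the RNA of these 4 genes. Of 20 tests of members in 5 comparisons, 1 passed. Smox was lower in Smox-/- AOM-DSS tumors than in WT AOM-DSS Spd tumors (log2 -1.30, 95% interval -1.80 to -0.80, adjusted p = 0.0357), in a comparison where 0.0614% of all genes were called and where the groups also differed in spermidine. The call was lost in 5 of 6 fits that left out a library: without WT tumor replicate 1 (log2 -1.36, adjusted p = 0.108), 2 (-1.38, 0.0514) or 3 (-1.14, 0.271) and without tumor replicate 1 (-1.32, 0.107) or 3 (-1.15, 0.31) of those labelled Smox-/-. It was also lost in a model of these groups alone (-1.29, adjusted p = 0.514). Summed smooth muscle markers were at 71.2 to 971 CPM in Smox-/- AOM-DSS tumors, against 25.2 to 112 CPM in WT AOM-DSS Spd tumors, and their part in this difference was not tested. In the 4 comparisons of non-tumor colon no member passed in edgeR, where 5.95% of genes were called in untreated colon, 0.0818% with spermidine, 0.0665% after AOM-DSS and 0.251% after both. An unadjusted p under 0.05 was reached in 3 of these 16 tests (14.1% over all genes), and DESeq2 called 2 (4.81% over all genes), which were Smox with spermidine (log2 -1.09, adjusted p = 0.00383) and Sat2 in untreated colon (-1.12, 0.0292). In edgeR the same Smox difference with spermidine passed without the pair of libraries that stood apart (-1.09, adjusted p = 0.0113), and did not without the 4 libraries with uneven marker sums (-0.97, 0.147). Neither library of that pair was in WT Spd or Smox-/- Spd. Leaving them out changed only the scaling, the filter and the shared estimate of spread for this comparison. Averaged over the 4 non-tumor conditions, Smox fell by 0.45 on the log2 scale in the colons labelled Smox-/- (SE 0.12, 95% interval -0.69 to -0.20, adjusted p = 0.0291), where 5.78% of genes were called. The 4 conditions behind this mean were unlike, with log2 differences of 0.22 in untreated colon, -1.06 with spermidine, -0.65 after AOM-DSS and -0.29 after both. Leaving out the pair of libraries that stood apart made the last of these -0.75, and the average -0.56. The average was -0.51 without the 4 libraries with uneven marker sums (adjusted p = 0.0118). For Paox, Sat1 and Sat2 the averaged genotype differences were -0.09 (-0.29 to 0.10), -0.07 (-0.35 to 0.21) and -0.40 (-0.80 to -0.01), with adjusted p of 0.631, 0.82 and 0.223.

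Markers of macrophages (4 of 6), of neutrophils (4 of 6), of T cells (2 of 6), of B and plasma cells (2 of 6), of goblet cells (1 of 6) and of squamous epithelium (1 of 6) rose in the same average, and of 5 small intestine markers 1 rose and 1 fell. Summed macrophage markers were at 22.7 to 121 CPM in the non-tumor colons labelled Smox-/-, against 13.3 to 75.3 CPM in WT non-tumor colons, and summed neutrophil markers at 1.09 to 192 CPM, against 0.69 to 60.2 CPM. Up to 3 of the 6 neutrophil markers were at 0 in a library, and no macrophage marker was. In untreated colon several sums lay apart by genotype. Smooth muscle sums were 1039 to 3294 CPM in Smox-/- untreated, against 4857 to 7559 CPM in WT untreated. Enteric neuron sums were 24.03 to 43.6 CPM, against 88.6 to 342 CPM. Epithelium sums were 14810 to 15080 CPM, against 10140 to 12830 CPM. Goblet cell sums were 6856 to 9580 CPM, against 2478 to 5076 CPM. Macrophage, neutrophil, T cell and B and plasma cell sums were also higher, without overlap. The part of these cells in the values of Smox was not tested.

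Spermidine given in the water was compared with none in 4 pairs of groups, to ask whether a supply of polyamine is met by a change in its breakdown genes. No member passed in edgeR in these 16 tests, while 1 reached an unadjusted p under 0.05 (11.2% over all genes) and 1 was called by DESeq2 (1.80%). Of all genes 0.00511% were called in untreated WT colon and 0% in each of the other 3. The test that came nearest was Smox in WT mice without AOM-DSS, at 48.8, 49.4 and 43.7 CPM in WT Spd, against 26.7, 25.1 and 27.6 CPM in WT untreated colons. These groups did not overlap, as was the case for 21.7% of genes, and the fold was 1.79 (1.27 to 2.52, edgeR adjusted p = 0.124, DESeq2 adjusted p = 0.0231). In mice labelled Smox-/- the values were 18.6, 26.6 and 22.8 CPM with spermidine, against 28.7, 36.2 and 27.4 CPM untreated (log2 -0.44, -0.94 to 0.06, adjusted p = 0.576). The difference between these effects, Smox-/- minus WT, was -1.28 (-1.98 to -0.57, adjusted p = 0.0449), 1 of 20 tests of differences between effects that passed, where 2.91% of genes did. It was lost in 10 of 12 fits that left out a library (adjusted p from 0.0346 to 0.122), where it held without Smox-/- untreated replicate 1 or Smox-/- Spd replicate 2. It was also lost without a filter on low counts (-1.36, adjusted p = 0.05002), without the pair of libraries that stood apart (-1.37, 0.0526) and without the 4 with uneven marker sums (-1.33, 0.17). Of 6 enteric neuron markers 4 were higher in the same difference, and 1 of 6 goblet cell markers was lower. Their sum for enteric neurons was 46.3 to 122 CPM in Smox-/- Spd, against 24.03 to 43.6 CPM in Smox-/- untreated, and 29.2 to 54.0 CPM in WT Spd, against 88.6 to 342 CPM in WT untreated, with no marker at 0. Other marker sums also lay apart between WT Spd and WT untreated. Epithelium markers summed to 17490 to 18220 CPM in WT Spd, against 10140 to 12830 CPM in WT untreated. Smooth muscle markers summed to 1877 to 3552 CPM, against 4857 to 7559 CPM. Between Smox-/- Spd and Smox-/- untreated the sums of these lists overlapped. The part of all these cells in the values of Smox was not tested. In the other differences 0.0102% of genes passed for tumors and 0% for the remaining 3. After AOM-DSS the spermidine effect on Smox was 0.44 in mice labelled Smox-/- (-0.06 to 0.93) and 0.07 in WT mice (-0.42 to 0.57), and the value in mice labelled Smox-/- became -0.03 without Smox-/- AOM-DSS Spd NT replicate 1. For Paox the 4 spermidine effects lay between -0.32 and 0.10, and for Sat1 between -0.21 and 0.29.

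AOM-DSS was compared with no AOM-DSS in non-tumor colon in 4 pairs of groups. Of 16 tests 1 passed, that of Smox in WT mice without spermidine, which had 48.2, 50.7 and 41.8 CPM in WT AOM-DSS NT, against 26.7, 25.1 and 27.6 CPM in WT untreated colons. This rise of 0.83 on the log2 scale (0.33 to 1.32, adjusted p = 0.0446) stood among 6.44% of genes called. In the other 3 pairs 0.0767% of genes passed in mice labelled Smox-/- without spermidine, 1.91% in WT mice with it and 0.0205% in mice labelled Smox-/- with it. It was not held by any fit that left out 1 of its 6 libraries, where log2 ran from 0.81 to 0.91 and the adjusted p from 0.0625 to 0.147. The single values without WT untreated replicates 1, 2 and 3 were 0.84, 0.81 and 0.91, and without WT AOM-DSS NT replicates 1, 2 and 3 they were 0.81, 0.82 and 0.90. With spermidine, the AOM-DSS effect on Smox in WT mice was 0.06 (-0.43 to 0.56), from a WT Spd group already at 47.3 CPM. In mice labelled Smox-/- it was -0.04 (-0.54 to 0.45) without spermidine and 0.84 (0.34 to 1.33) with it. The value with spermidine had an adjusted p of 0.14 in edgeR and 0.0303 in DESeq2. It was 0.38 without Smox-/- AOM-DSS Spd NT replicate 1. Averaged over the 4 comparisons, Smox was 1.34-fold higher after AOM-DSS (1.13 to 1.59, adjusted p = 0.0164), where 20.9% of genes were called, and this held in all 24 fits that left out a library. It was lost without the 4 libraries with uneven marker sums (log2 0.27, adjusted p = 0.0863), where the effect in mice labelled Smox-/- with spermidine was 0.26. Summed colonocyte markers were at 1394 to 13620 CPM in the non-tumor colons after AOM-DSS, against 6868 to 31240 CPM in those without it, with no marker at 0, and 2 of 6 fell in the average. Skeletal muscle markers (6 of 6), squamous markers (4 of 6), enteric neuron markers (3 of 6), small intestine markers (3 of 5), smooth muscle markers (2 of 6) and T cell markers (2 of 6) fell as well, and neutrophil markers (5 of 6), goblet cell markers (4 of 6), 1 of 6 macrophage and 1 of 6 Wnt and stem cell markers rose. In WT AOM-DSS NT over WT untreated, 5 of 6 skeletal muscle, 2 of 6 enteric neuron, 1 of 6 colonocyte and 1 of 5 small intestine markers fell, and 3 of 6 neutrophil and 1 of 6 goblet cell markers rose. Smooth muscle markers summed to 324 to 2423 CPM in WT AOM-DSS NT, against 4857 to 7559 CPM in WT untreated. B and plasma cell markers summed to 478 to 731 CPM, against 18.9 to 144 CPM. Summed skeletal muscle markers were at 3.45 to 14.5 CPM in the non-tumor colons after AOM-DSS, against 16.1 to 6963 CPM in those without it, with up to 2 of 6 at 0 in a library. Summed neutrophil markers were at 0.857 to 192 CPM after AOM-DSS, against 0.688 to 92.1 CPM without it. The part of these cells in the values of Smox was not tested. For Paox the 4 effects lay between -0.22 and 0.41, of which that in WT mice without spermidine had an adjusted p of 0.191. Sat2 was at -0.49 on the log2 scale in the same average (-0.89 to -0.10, adjusted p = 0.0696 in edgeR and 0.0383 in DESeq2).

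**Figure D3:**
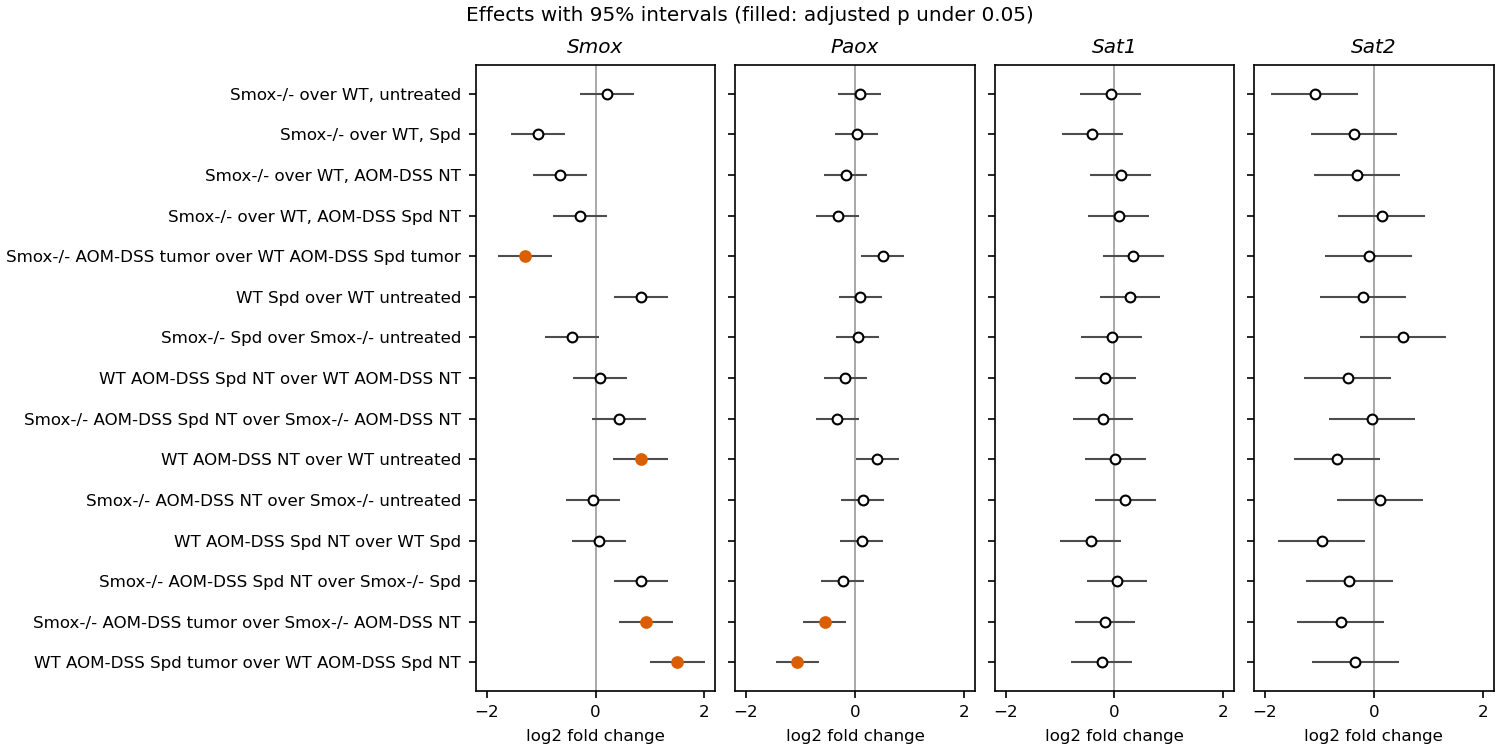
Log2 fold changes (x axis) of Smox, Paox, Sat1 and Sat2 in the 15 comparisons of group pairs (rows), with 95% intervals; filled points have an adjusted p under 0.05. The filled points are Smox in both tumor comparisons, between the tumor groups and in WT AOM-DSS NT over WT untreated, and Paox in both tumor comparisons.

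Sat1, whose product is the rate-limiting enzyme of the acetylation route and is controlled to a large part after transcription, was the most abundant member and passed no test. In edgeR 0 of its 24 comparisons passed, 0 were under 0.05 before adjustment (18.6% over all genes), and DESeq2 called 0 (9.33% over all genes). Group means were, from high to low, 282 ± 77.2 CPM in WT Spd, 253 ± 36.2 in Smox-/- AOM-DSS NT, 234 ± 70.5 in WT AOM-DSS NT, 231 ± 90.8 in WT untreated and 225 ± 79.9 in Smox-/- AOM-DSS tumors. Below these came 221 ± 25 CPM in Smox-/- untreated, 219.6 ± 6.32 in Smox-/- AOM-DSS Spd NT, 213 ± 21.8 in Smox-/- Spd, 208 ± 37.5 in WT AOM-DSS Spd NT and 177 ± 34.2 in WT AOM-DSS Spd tumors (SD, n = 3 each). Every group overlapped its neighbour in that order. Libraries of a group were wide apart, with 205, 157 and 332 CPM in WT untreated and 177, 181 and 317 CPM in Smox-/- AOM-DSS tumors. The spread of Sat1 over all libraries was no wider than that within groups. Its SD of log2 CPM was 0.33 over all 30 libraries and 0.34 within groups. For Smox the values were 0.76 and 0.30, and for Paox 0.39 and 0.22. Averaged over both tumor comparisons, Sat1 differed by -0.20 on the log2 scale (-0.60 to 0.19, adjusted p = 0.391). The absence of a call does not show that Sat1 was equal between groups.

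Sat2 was the rarest member, with 30 to 146 counts per library, and edgeR called 0 of its 24 comparisons. There were 4 under 0.05 before adjustment, and DESeq2 called 2, shares that do not exceed the 18.6% and 9.33% over all genes. Its highest group was WT untreated, with 1.93, 1.72 and 2.81 CPM, and its lowest Smox-/- AOM-DSS tumors, with 0.616, 0.955 and 0.568 CPM. In untreated colon it had 1.53, 0.664 and 0.850 CPM in mice labelled Smox-/-, below each of the 3 WT values (log2 -1.09, -1.89 to -0.29, adjusted p = 0.0851 in edgeR and 0.0292 in DESeq2), where 28.9% of genes had groups that did not overlap. Without WT untreated replicate 3 and Smox-/- AOM-DSS Spd NT replicate 1 the log2 difference was -0.82 (adjusted p = 0.249). After WT untreated at 2.15 ± 0.58 CPM, the group means were 1.88 ± 0.53 in WT Spd, 1.46 ± 0.70 in Smox-/- Spd, 1.35 ± 0.20 in WT AOM-DSS NT, 1.09 ± 0.15 in Smox-/- AOM-DSS NT and 1.07 ± 0.50 in Smox-/- AOM-DSS Spd NT. They ended with 1.01 ± 0.45 CPM in Smox-/- untreated, 0.97 ± 0.11 in WT AOM-DSS Spd NT, 0.76 ± 0.17 in WT AOM-DSS Spd tumors and 0.71 ± 0.21 in Smox-/- AOM-DSS tumors (SD, n = 3 each). Neighbouring groups overlapped throughout this order.

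The other genes of polyamine metabolism were read from 7 lists of 47 genes, of which 46 were tested. In Smox-/- AOM-DSS tumors over Smox-/- AOM-DSS NT 2 of the 46 rose and 10 fell, where 11.4% of all genes rose and 13.2% fell, with a median log2 difference of -0.19 beside -0.01 over all genes. In WT AOM-DSS Spd tumors over WT AOM-DSS Spd NT 8 rose and 12 fell, where 16.9% of all genes rose and 17.5% fell, with a median of -0.07 beside 0.01 over all genes. Of 7 aldehyde dehydrogenase genes, whose enzymes clear aldehydes such as those released by polyamine oxidation, 4 fell and 0 rose in each comparison, and Aldh2 had 294 ± 83.3 CPM in WT AOM-DSS Spd tumors, against 1136 ± 286 CPM in WT AOM-DSS Spd NT (log2 -1.95, SE 0.39, adjusted p = 0.00111). In the same samples Aldh1b1, a mitochondrial member of that family, had 45.4 ± 25.3 CPM in the tumors, against 288 ± 58.6 CPM in non-tumor colon (log2 -2.66, SE 0.35, adjusted p = 0.000157). Slc18b1, a vesicular polyamine transporter, had 9.93 ± 4.01 CPM in WT AOM-DSS Spd tumors, against 39.4 ± 7.59 CPM in WT AOM-DSS Spd NT (adjusted p = 0.000197), and 12.3 ± 4.34 CPM in Smox-/- AOM-DSS tumors, against 34.9 ± 3.56 CPM in Smox-/- AOM-DSS NT (adjusted p = 0.0034). Slc3a2, a transporter subunit linked to diamine export, rose 1.77-fold in WT AOM-DSS Spd tumors (106 ± 28.1 CPM, against 59.5 ± 6.88 CPM in WT AOM-DSS Spd NT, adjusted p = 0.00111).

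Among the other amine oxidases, 3 of 7 fell in WT AOM-DSS Spd tumors and 2 of 7 in Smox-/- AOM-DSS tumors. They included Maoa, a monoamine oxidase, at 138 ± 44.3 CPM in WT AOM-DSS Spd tumors, against 552 ± 87.2 CPM in WT AOM-DSS Spd NT (adjusted p = 0.0012), and Maob at 4.34 ± 3.88 CPM, against 39.2 ± 15.3 CPM (adjusted p = 0.00129). Kdm1a, a histone demethylase of the same flavin-dependent fold as SMOX and PAOX, rose 1.80-fold in Smox-/- AOM-DSS tumors (105 ± 22.5 CPM, against 58.2 ± 2.63 CPM in Smox-/- AOM-DSS NT, adjusted p = 0.00444). Of 11 genes for the disposal of hydrogen peroxide, 3 fell and 0 rose in Smox-/- AOM-DSS tumors, and 2 fell and 1 rose in WT AOM-DSS Spd tumors. The peroxiredoxin gene Prdx5 had 159 ± 33.3 CPM in Smox-/- AOM-DSS tumors, against 284 ± 52.6 CPM in Smox-/- AOM-DSS NT (adjusted p = 0.00562), and Prdx3 had 69.9 ± 8.85 CPM, against 103 ± 9.69 CPM (adjusted p = 0.00763). Of 6 synthesis genes 1 rose in WT AOM-DSS Spd tumors, a share like the 16.9% of all genes that rose. In Smox-/- AOM-DSS tumors edgeR called 0 of them, 0 had an unadjusted p under 0.05 (39.8% over all genes) and DESeq2 called 0 (29.9%). Their most abundant members, Odc1 and Amd1, ran from 129 to 270 CPM and from 76.2 to 180 CPM over the 30 libraries. The fall of colonocyte markers and the rise of Wnt and stem cell markers given above went with all of these changes, and their part in them was not tested.

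**Figure D4:**
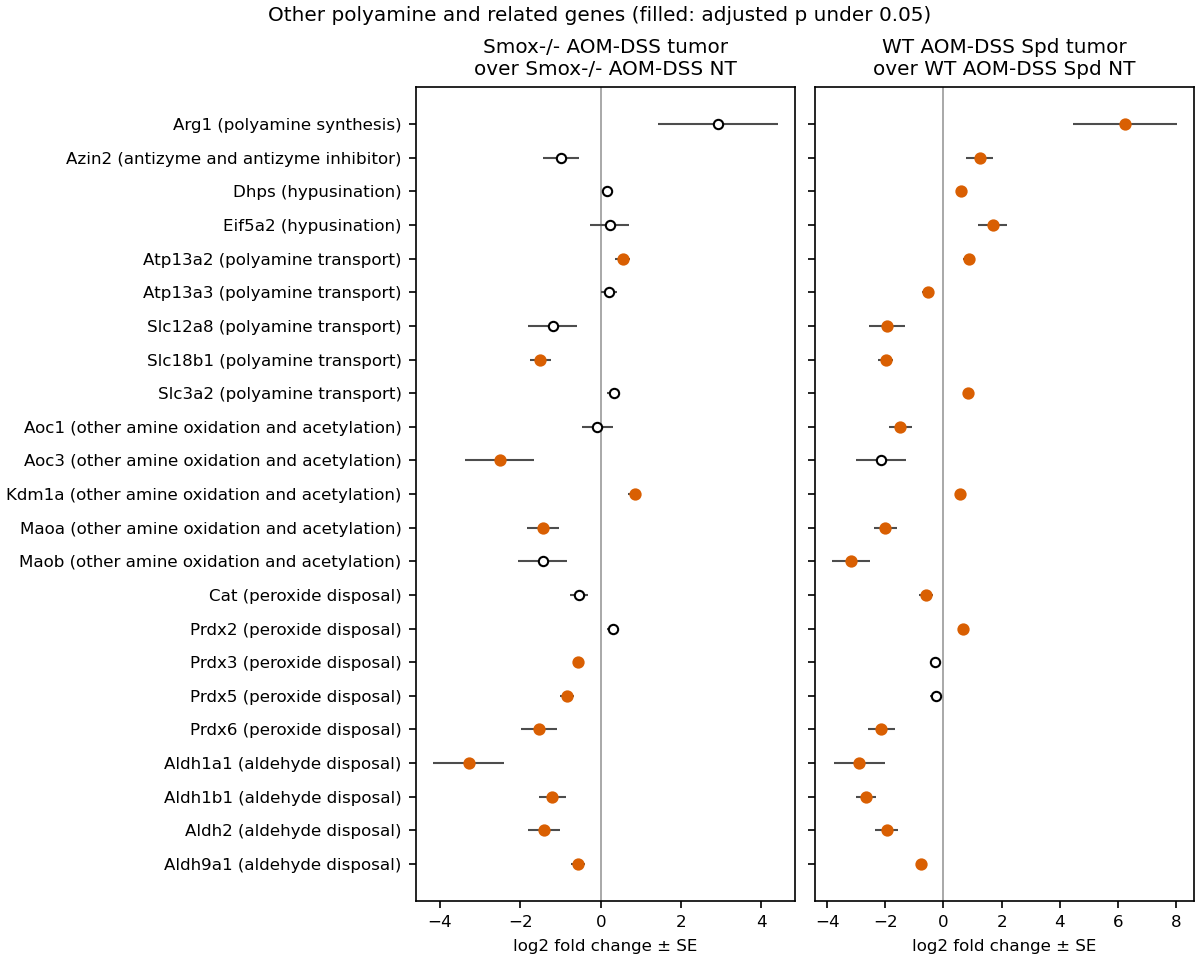
Log2 fold change ± SE (x axes) of the 23 listed genes called in at least 1 tumor comparison (rows, list in brackets), for Smox-/- AOM-DSS tumors over Smox-/- AOM-DSS NT (left) and WT AOM-DSS Spd tumors over WT AOM-DSS Spd NT (right); filled points have an adjusted p under 0.05. The aldehyde dehydrogenase genes Aldh1a1, Aldh1b1, Aldh2 and Aldh9a1 and the transporter gene Slc18b1 lie below 0 and are filled in both panels.

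The averaged comparisons of non-tumor colon were read in the same way. Averaged over the 4 non-tumor conditions, 2 of the 46 rose and 2 fell in the colons labelled Smox-/-, where 3.75% of all genes rose and 2.03% fell. Odc1, the gene of ornithine decarboxylase, with which polyamine synthesis begins, was 1.26-fold higher (log2 0.34, SE 0.10, adjusted p = 0.049), and Arg1, an arginase of myeloid cells among others, was higher by 3.74 on the log2 scale (SE 0.80, adjusted p = 0.00955). Arg1 ranged from 0.096 to 155 CPM over the 30 libraries. In untreated colon it had 64.6 ± 80.3 CPM in mice labelled Smox-/-, an SD above the mean, against 0.149 ± 0.027 CPM in WT mice. That difference was called (log2 8.73, edgeR adjusted p = 0.0229), and Arg1 was not called by genotype in the other non-tumor conditions. Aldh7a1, of the aldehyde dehydrogenases, fell by 0.57 on the log2 scale (SE 0.10, adjusted p = 0.00395) and the peroxiredoxin gene Prdx6 by 0.90 (SE 0.22, adjusted p = 0.0185). Averaged over the 4 AOM-DSS comparisons, 9 rose and 6 fell, where 8.69% of all genes rose and 12.2% fell. The transport list had 4 of 6 members that rose, among them Atp13a2, a lysosomal polyamine exporter, at 1.33-fold (adjusted p = 0.00408) and Slc12a8 at 2.14-fold (adjusted p = 0.0135). Aldh1a1 (7.67-fold lower, adjusted p = 9.73e-05), Aldh3a1 (4.51-fold lower, 0.00939), Maoa (1.90-fold lower, 0.00245) and the glutathione peroxidase gene Gpx4 (1.32-fold lower, 0.00691) fell. Of 11 genes for the disposal of hydrogen peroxide, Gpx4 was the 1 that fell, and 4 rose. Aldh3a1 was near the floor, at 0.051 to 4.22 CPM over the 30 libraries (median 0.27 CPM). Averaged over the 4 spermidine comparisons edgeR called 0 of the 46, while 6 reached an unadjusted p under 0.05 (12.5% over all genes) and DESeq2 called 2 (1.74%).

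The genes whose log2 CPM followed a member most closely over the 30 libraries were sought among 15783 genes, as a description of samples that share their groups and libraries. For Smox they were Cacul1 (Pearson r = 0.92), Clcn3 (0.90), Minpp1 (0.89), Lemd3 (0.88) and Vezt (0.87), and with group means taken out r was 0.85, 0.79, 0.44, 0.69 and 0.90. For Paox they were Cbr3 (0.91), Serhl (0.91), Gas6 (0.91), Mgst1 (0.91) and Rbks (0.90), with 0.77, 0.67, 0.78, 0.67 and 0.71 within groups. For Sat1 they were Sppl2a (0.81), Rassf1 (0.80), Ap3s1 (0.78), Cystm1 (0.78) and Ehbp1l1 (0.78), with 0.87, 0.81, 0.87, 0.79 and 0.83 within groups. For Sat2 they were Msrb1 (0.87), Coq10a (0.86), Abhd1 (0.86), H1f2 (0.85) and Fdxr (0.85), with 0.69, 0.68, 0.66, 0.74 and 0.69 within groups. The lists of the 4 members shared no gene. They rest on Pearson r, and ranks by Spearman's rho, a correlation of orders, differed. For Paox the genes Cbr3, Serhl, Gas6, Mgst1 and Rbks ranked 267, 7, 31, 24 and 73 by rho. For Smox Cacul1, Clcn3, Minpp1, Lemd3 and Vezt ranked 2, 1, 4, 79.5 (a tie) and 7.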

How the data were processed

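Total RNA of 30 colon samples (10 groups of 3 mice) was purified with RNeasy columns and made into libraries with a directional kit, per the labels' protocols. Reads were processed with fastp, Salmon and DESeq2 on GRCm38, per the submitters' processing notes, and versions, settings and annotation are not given in the sources used here. The values are expected counts per gene, estimated counts that the authors deposited as whole numbers, so rounding changed none of them. No column was left unused and no pair of columns was identical.

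Tests were run in R 4.3.3 with edgeR 4.0.16. TMM scaling, filterByExpr (minimum count 10, minimum total 15) and a robust quasi-likelihood model with 1 mean per group were used for all 30 libraries, with 20 residual degrees of freedom. In each of 24 comparisons (15 of group pairs, 5 of differences between effects, 4 averages) the Benjamini-Hochberg adjustment ran over all 19558 genes tested. Levels are TMM-scaled CPM, divided where stated by the union of exons in GENCODE for GRCm38, and intervals are 95%. Results were recomputed with DESeq2 1.42.0, with RLE scaling, without any filter, with a threshold of 1 CPM in 3 libraries, with a model holding only the groups compared, without the pair of libraries that stood apart, without these and another pair with uneven marker sums (chosen after seeing the data), and without each library in turn. The steps were also run on simulated data, which had less spread between libraries than these data. That run checks the code and does not show how many changes the tests find or miss here.

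The genes named are the 4 members, called genes of the 7 pathway lists (at most 6 per comparison, by smallest p), the most abundant genes of a list with none called, and the 5 genes with the highest Pearson r to each member (log2 CPM, prior count 2). The 4 members, the lists and the tests were chosen with earlier results of these data known. Replicates are mice per the series' design text, and the labels give no batch, date or pairing. Each edgeR p-value sets a difference between groups against the spread between libraries within groups, estimated jointly over all 10 groups. Depth of 33060607 to 81011304 counts limits Sat2 most, with 30 to 146 counts.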

Additional observations from a re-analysis of the deposited data

Results flagged for a closer look

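The effect of spermidine on Smox without AOM-DSS passed a test of its difference between genotypes, fitted as an interaction, in a call that was lost in 10 of 12 fits that left out a library. The log2 effect in mice labelled Smox-/- minus that in WT mice was -1.28 (SE 0.34, 95% interval -1.98 to -0.57, edgeR adjusted p = 0.0449). Smox had 18.6, 26.6 and 22.8 CPM in Smox-/- Spd, against 28.7, 36.2 and 27.4 CPM in Smox-/- untreated, and 48.8, 49.4 and 43.7 CPM in WT Spd, against 26.7, 25.1 and 27.6 CPM in WT untreated. Neither effect passed the test by itself (adjusted p = 0.576 and 0.124). The same difference after AOM-DSS was 0.36 (-0.33 to 1.06, adjusted p = 1). The difference was also not called without a filter on low counts, without the pair of libraries that stood apart (adjusted p = 0.0526) or without the 4 with uneven marker sums (0.17), and 4 of 6 enteric neuron markers were called in the same comparison. Summed epithelium markers were at 17490 to 18220 CPM in WT Spd, against 10140 to 12830 CPM in WT untreated. The part of these cells was not tested.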

How the results depend on the processing

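The tumor effects on Smox and Paox in WT AOM-DSS Spd tumors, their averages over both tumor comparisons, and the averaged effect of genotype on Smox kept their direction and call under every alternative run. Without a filter on low counts the AOM-DSS effect on Smox in WT mice was 0.87, the tumor effect on Paox in mice labelled Smox-/- -0.53 and the spermidine difference of Smox between genotypes -1.36, none of them called. With only the groups compared in the model the tumor difference of Smox between genotypes was -1.29, the AOM-DSS effect on Smox in WT mice 0.89 and the tumor effect on Paox in mice labelled Smox-/- -0.54, none called. Without WT untreated replicate 3 and Smox-/- AOM-DSS Spd NT replicate 1 the AOM-DSS effect on Smox in WT mice was 0.91 and the spermidine difference -1.37, neither called, and the spermidine effect on Smox in mice labelled Smox-/- after AOM-DSS turned to -0.023. The same fit turned the averaged differences of Sat1 to 0.014 for genotype, 0.0638 for spermidine and 0.059 for AOM-DSS, and that of Sat2 for spermidine to 0.0825. In a fit chosen after seeing the data, without the 4 libraries with uneven marker sums, the uncalled values became 0.91 for AOM-DSS on Smox in WT mice, -1.33 for the spermidine difference and 0.27 for the averaged AOM-DSS effect on Smox, which held its call otherwise. Those that turned were -0.023 for spermidine on Smox in mice labelled Smox-/- after AOM-DSS, the averages of Sat1 at 0.0339 for genotype, 0.0683 for spermidine and 0.0391 for AOM-DSS, and that of Sat2 for spermidine at 0.112. The fits with only the groups compared, or without libraries, hold fewer samples by construction, and otherwise the cause was not tested.

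The call counts moved with them. The genotype comparisons had 1 call of a member, 2 without the atypical pair, 0 with only the groups compared and 3 in DESeq2. Spermidine had 0, and 1 in DESeq2. AOM-DSS had 1, and 0 without a filter, without the atypical pair, without the 4 libraries or with only the groups compared, and 2 in DESeq2. The 2 in DESeq2 were Smox in WT mice without spermidine (adjusted p = 0.0118) and in mice labelled Smox-/- with it (0.0303). Differences between effects had 1, and 0 without a filter, the atypical pair or the 4 libraries. Pathway calls over the 15 comparisons of pairs were 37, and 58 in DESeq2. Shares of all genes called by edgeR in the main fit stand with each comparison above. Over all genes and comparisons DESeq2 called 9.33%. Shares under the other settings, or with a library left out, are not given here, so those counts are not set against them.

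With each library left out in turn, log2 values ran from -1.46 to -1.14 for the tumor difference of Smox between genotypes, 0.81 to 0.91 for the AOM-DSS effect on Smox in WT mice, 0.77 to 1.11 for the tumor effect on Smox and -0.74 to -0.42 for that on Paox in mice labelled Smox-/-, and -1.42 to -1.16 for the spermidine difference. Uncalled Smox effects that changed sign ran from -0.77 to 0.00798 (genotype after AOM-DSS with spermidine), -0.0395 to 0.0943 (spermidine after AOM-DSS in WT mice), -0.0253 to 0.75 (the same in mice labelled Smox-/-), -0.20 to 0.0775 (AOM-DSS in mice labelled Smox-/-) and -0.0542 to 0.0797 (AOM-DSS with spermidine in WT mice). Averages of Sat1 ran from -0.15 to 0.0152 (genotype), -0.0785 to 0.065 (spermidine) and -0.10 to 0.0601 (AOM-DSS), and that of Sat2 from -0.16 to 0.0688 (spermidine). Calls of members ran from 0 to 2 for genotype and AOM-DSS, 2 to 4 for tumors and 0 to 1 for differences, and pathway calls from 28 to 42. Of 40 group levels 36 stayed within 1 SD under each other scaling. No paired analysis was possible because the replicate numbers used here are the order of the library identifiers within a group and pair no samples.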
